A study of Mus musculus with 2 samples.

Results

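The transcripts described here were those called at annotated gene promoters in global run-on sequencing (GRO-seq) of bone marrow-derived macrophages (BMDMs) from wild-type C57BL/6 mice. In GRO-seq, engaged RNA polymerases extend their transcripts in isolated nuclei with a labelled nucleotide, and only the labelled RNA is sequenced. Bone marrow from mice 8 to 12 weeks old was differentiated for 6 days in L929 supernatant, a source of the macrophage growth factor M-CSF that both groups received. The control cells got nothing more, and the IL-4 1 h cells got interleukin-4 at 20 ng/ml for 1 h. Run-on reactions of each condition were pooled into 1 library, so there was 1 library per condition, no replicate, and no test of the conditions. Cells differentiated in culture are a model of macrophages outside their tissue, and the labels do not say how many mice were used.

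A transcript was taken when its annotation class began with promoter-TSS and its detailed annotation neither began with CpG nor named a repeat. This gave 4650 of 43122 called transcripts in control (10.8%) and 5225 of 51365 after IL-4 (10.2%). The rule was written to leave out CpG islands, and in these files it did not do so. Every promoter-TSS transcript passed it, because 0 of them carried a CpG entry and 0 carried a repeat entry in either library. CpG entries stood only on other classes, on 1663 intron and 262 intergenic transcripts in control and on 1979 and 269 after IL-4. The members are therefore called promoter-TSS transcripts below, and their CpG content was read from sequence instead.

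Promoters are the stretches around gene starts where RNA polymerase II assembles. In mammals most promoters of broadly used genes lie in CpG islands, stretches that kept their CG dinucleotides, while many tissue-restricted and inducible genes start from CpG-poor promoters, some with a TATA box. Polymerase commonly starts in both directions at mammalian promoters and pauses shortly after the start, so that run-on signal gathers close to the start on both strands. IL-4 acts in macrophages through its receptor, JAK kinases and the transcription factor STAT6, and drives the alternative polarization state marked by the mannose receptor Mrc1 and arginase 1.

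RefSeq promoter windows of the GRCm38.p6 build, from 250 bases before to 50 after a gene's start, could be assigned to 82.4% of the members in each library. A window was called CpG-rich when its GC content was at least 50% and its observed over expected CpG at least 0.6, and CpG-poor otherwise. By that measure 593 of 3830 members with a window were CpG-poor in control (15.5%, 95% Wilson interval 14.4 to 16.7%) and 690 of 4304 after IL-4 (16.0%, 15.0 to 17.2%). All intervals given here cover the counting of transcripts or windows within a library and nothing else. Counted by window, 17.5% of 4640 member windows were CpG-poor, against 66.5% of all 32851 reference windows. The median observed over expected CpG was 0.84 in member windows and 0.38 in all windows. The transcripts taken as lying outside CpG islands thus came mostly from CpG-rich promoters.

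**Figure D1:**
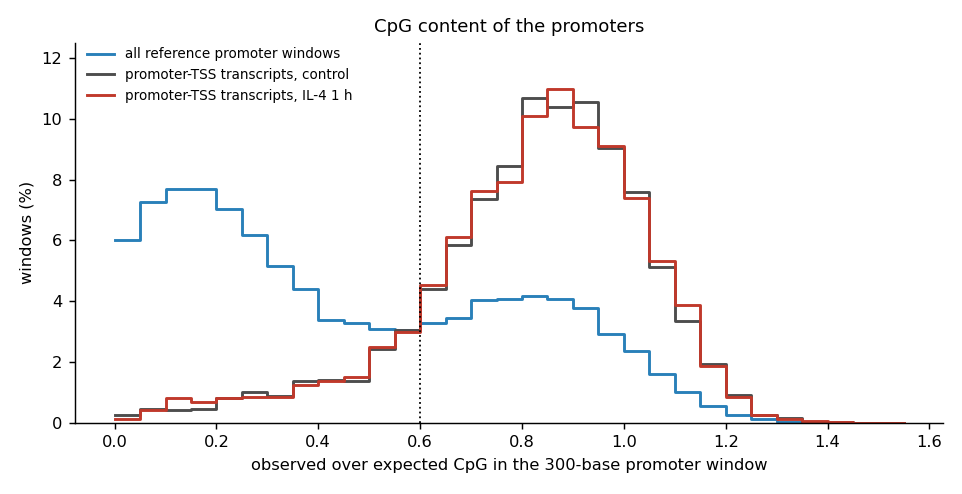
Share of 300-base promoter windows by observed over expected CpG (x axis, steps of 0.05), for all 32851 reference windows (blue) and for the windows of promoter-TSS transcripts in control (grey) and after IL-4 (red). The dotted line marks 0.6. The member windows lie mostly right of the line, with a median of 0.85 in each library, while the median of all windows is 0.38.

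The windows of 7 genes are shown because their promoter-TSS transcripts differed at least 2-fold between the libraries and because they span both promoter kinds. They were chosen after their values were seen. Each reads 5′ to 3′ along the gene, its last 50 bases lie in the first exon, and capitals mark the CG dinucleotides. The CpG-poor windows are Ier3 (chr17:35821463-35821762, plus strand), Mrc1 (chr2:14229164-14229463, plus), Fcgr2b (chr1:170976022-170976321, minus), Cyp27a1 (chr1:74713285-74713584, plus) and 1 of several Sgk1 starts (chr10:21993640-21993939, plus). The CpG-rich windows are Nfil3 (chr13:52980990-52981289, minus) and Socs1 (chr16:10785487-10785786, minus).
Ier3: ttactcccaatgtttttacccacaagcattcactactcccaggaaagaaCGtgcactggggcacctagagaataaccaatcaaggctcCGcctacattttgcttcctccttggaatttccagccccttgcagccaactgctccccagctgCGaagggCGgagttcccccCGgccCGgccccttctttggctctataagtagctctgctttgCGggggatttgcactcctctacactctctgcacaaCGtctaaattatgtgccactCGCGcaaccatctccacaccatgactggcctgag
Mrc1: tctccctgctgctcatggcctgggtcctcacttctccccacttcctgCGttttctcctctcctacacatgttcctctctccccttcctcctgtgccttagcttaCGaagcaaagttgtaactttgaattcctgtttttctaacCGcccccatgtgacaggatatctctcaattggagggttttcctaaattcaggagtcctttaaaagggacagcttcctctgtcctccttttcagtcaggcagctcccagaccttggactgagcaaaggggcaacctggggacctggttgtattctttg
Fcgr2b: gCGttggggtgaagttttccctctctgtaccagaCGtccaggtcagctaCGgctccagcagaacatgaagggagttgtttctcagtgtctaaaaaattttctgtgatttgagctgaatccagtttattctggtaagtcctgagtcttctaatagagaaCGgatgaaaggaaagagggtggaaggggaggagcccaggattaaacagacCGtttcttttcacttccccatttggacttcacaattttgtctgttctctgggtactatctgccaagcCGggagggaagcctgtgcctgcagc
Cyp27a1: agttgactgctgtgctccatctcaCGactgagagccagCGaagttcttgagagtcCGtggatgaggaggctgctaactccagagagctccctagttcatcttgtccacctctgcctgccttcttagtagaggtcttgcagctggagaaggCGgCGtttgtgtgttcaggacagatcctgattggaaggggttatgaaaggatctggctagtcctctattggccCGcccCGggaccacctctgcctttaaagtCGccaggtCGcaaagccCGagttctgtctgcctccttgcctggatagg
Sgk1: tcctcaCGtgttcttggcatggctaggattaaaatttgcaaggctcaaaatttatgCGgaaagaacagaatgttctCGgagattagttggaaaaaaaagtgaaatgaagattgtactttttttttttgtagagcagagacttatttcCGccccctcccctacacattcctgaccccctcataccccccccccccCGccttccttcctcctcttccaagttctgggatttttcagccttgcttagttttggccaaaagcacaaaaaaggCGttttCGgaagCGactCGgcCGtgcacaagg
Nfil3: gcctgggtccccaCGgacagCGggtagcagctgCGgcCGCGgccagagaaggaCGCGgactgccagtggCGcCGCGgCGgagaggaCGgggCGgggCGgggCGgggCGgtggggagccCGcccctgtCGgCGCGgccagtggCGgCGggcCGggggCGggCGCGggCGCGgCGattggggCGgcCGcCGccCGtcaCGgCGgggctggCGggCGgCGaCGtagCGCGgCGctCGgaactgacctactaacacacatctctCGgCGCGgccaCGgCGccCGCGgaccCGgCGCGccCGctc
Socs1: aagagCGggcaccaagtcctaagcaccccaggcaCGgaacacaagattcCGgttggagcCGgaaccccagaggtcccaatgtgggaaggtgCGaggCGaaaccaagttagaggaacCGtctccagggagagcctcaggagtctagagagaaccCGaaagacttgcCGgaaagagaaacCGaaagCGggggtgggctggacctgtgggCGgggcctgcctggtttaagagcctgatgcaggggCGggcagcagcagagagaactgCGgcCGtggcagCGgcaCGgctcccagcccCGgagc

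The CG count separates these windows by eye. Mrc1 holds 3, Fcgr2b 6 and Ier3, Cyp27a1 and Sgk1 10 each, while Socs1 holds 18 and Nfil3 54. The Sgk1 window has an observed over expected CpG of 0.64 and is CpG-poor only by its GC content of 46.3%. Letters of the GC box, GGGCGG on either strand, occur in 6 of the 7 windows, and Nfil3 holds 9 copies. The exact TATA box letters TATAAA occur in none of the windows, and variants of these letters were not searched.

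Levels were low and tightly packed. The score of a transcript is the only measurement deposited. It was rounded to 1 decimal, and neither its scaling to library size nor its division by transcript length is stated, so scores of different genes are listed and not compared. The depth of the libraries is unknown. The median member score was 0.3 in control (quartiles 0.2 and 0.4) and 0.2 after IL-4 (0.2 and 0.3). Scores of 0.2 or less made up 43.1% of members in control and 56.4% after IL-4, and over all transcripts these shares were 45.4% and 63.9%. Scores of 1 or more belonged to 171 control members and 101 IL-4 members. The median length of all members was 235 bp without and 296 bp with IL-4, compared with 227 and 312 bp over all transcripts. The summed length of members was 1.24 Mb in the control library and 1.79 Mb in the other. In a bulk library, fewer cells of a type and less RNA per cell cannot be told apart.

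Members near CpG-poor and CpG-rich windows had the same median scores, 0.3 in control and 0.2 after IL-4. Scores of 0.2 or less were more frequent near CpG-poor windows, 49.4% against 42.0% in control and 65.4% against 54.6% after IL-4. Protein-coding genes supplied 92.6% of control members and 92.1% of IL-4 members.

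The highest scores stood mostly on short non-coding RNA genes. The transcript named for Mir466d scored 185.8 in control and 205.4 after IL-4, and that named for Mir5109 scored 134.6 and 101.0. Neither lay within 1500 bp of a start of its own gene in the reference, so their assignment to these genes is uncertain. Rmrp, the RNA of the ribonuclease MRP complex, scored 15.4 and 19.2. Rnu12, the U12 small nuclear RNA of the minor spliceosome, scored 10.0 and 14.9. Scarna2, a guide RNA of Cajal bodies, scored 9.9 and 6.4. None of these 5 differed 2-fold with or without centring, which is explained below.

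Small nucleolar RNA (snoRNA) genes, whose products guide modification of ribosomal RNA, had a median score of 0.65 over 60 control members and 0.6 over 68 IL-4 members. Snord83b scored 36.4 in control and 26.7 after IL-4. Snord49b scored 3.7 and 6.6, 2-fold higher only with centring, and Snord65 scored 3.1 and 4.1. Reads from mature snoRNAs and from the introns that host them cannot be told apart here.

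The strand of the members was compared with that of the gene whose RefSeq transcript gave the annotation. In control 1810 of 4573 placed members ran with their gene (39.6%, 38.2 to 41.0%). After IL-4 1736 of 5136 did (33.8%, 32.5 to 35.1%). Members on the opposite strand were thus the larger group in both libraries. An opposite-strand member with another gene's start within 500 bp on its own strand made up 28.2% of placed members in control and 30.7% after IL-4. The remaining 32.2% and 35.5% were opposite-strand members with no such start. This last group was not limited to upstream positions. The Maf member in control, for example, began 707 bp downstream of the start. When strand was read instead from the gene with the nearest start, a choice made after the data were seen, 58.1% and 53.5% ran with their gene.

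The annotation class is set by the midpoint of a transcript, and this bears on the strand counts. A transcript that runs with its gene from the start has its midpoint inside the gene once it is long enough, and it is then annotated as exon, intron or 5′ UTR. An antisense transcript that runs upstream keeps its midpoint in the promoter at any such length. Of opposite-strand members, 97.7% in control and 97.9% after IL-4 had their midpoint less than 100 bp downstream of the start, and of members running with their gene 77.0% and 76.0% did. Whether the longer transcripts of the IL-4 library have a part in its lower share was not tested.

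The 5′ ends of opposite-strand members lay upstream of the gene's start, at a median of −153 bp in the control library and −134 bp in the IL-4 library. For members running with their gene the medians were −60 and −139 bp. Of the latter, 37.6% began within 50 bp of the start in control and 31.0% after IL-4. A further 20.4% and 28.6% began more than 500 bp upstream.

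**Figure D2:**
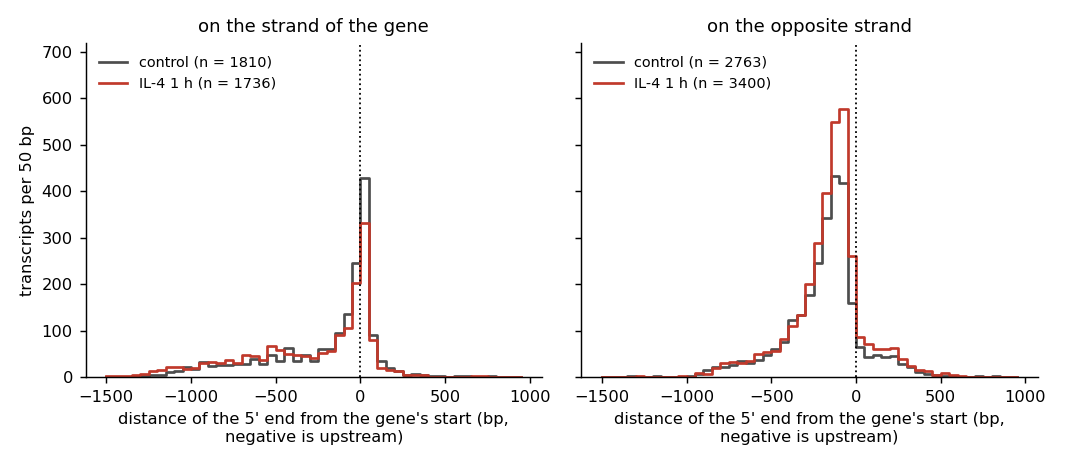
Number of promoter-TSS transcripts per 50 bp by the distance of their 5′ end from the start of the annotated gene, for transcripts on the gene's strand (left) and on the opposite strand (right), in control (grey) and after IL-4 (red). Same-strand 5′ ends peak at the start, and opposite-strand ones peak upstream of it, with medians of −153 bp (control) and −134 bp (IL-4).

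CpG-poor promoters held a larger share of members running with their gene. Near CpG-poor windows the share was 51.6% in control (47.5 to 55.6%) and 45.9% after IL-4 (42.2 to 49.7%). Near CpG-rich windows it was 35.7% (1138 of 3192, upper bound 37.3%) and 29.4% (1050 of 3566, upper bound 31.0%). No test was made between the promoter kinds, and this split was not counted with strand read from the nearest start. Genes with members on both strands were 10.3% of member genes in control and 10.6% after IL-4.

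A member was next taken to have a counterpart when any transcript of the other library, of whatever class, shared at least 1 bp with it on its strand. No counterpart was found for 919 of 4650 control members (19.8%, 18.6 to 20.9%) and for 1807 of 5225 IL-4 members (34.6%, 33.3 to 35.9%). For 5′ UTR transcripts the shares were 14.1% and 24.9%, and for intron transcripts 40.8% and 50.5%. Members near CpG-poor windows lacked a counterpart more often, 31.2% against 17.1% in control and 42.0% against 32.6% after IL-4, and they also had more of the lowest scores. Absence followed the score closely. At a score of 0.1, 45.5% of control and 64.7% of IL-4 members had none, and at scores of 1 or more 1.75% and 1.98%. The part of sequencing depth in this was not tested, since depth is unknown.

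**Figure D3:**
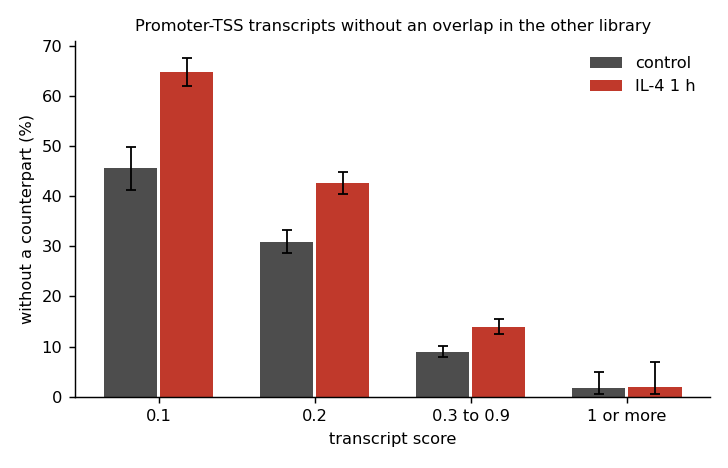
Percent of promoter-TSS transcripts without a same-strand overlap in the other library, by score, in control (grey) and after IL-4 (red). Bars start at 0 and error bars are 95% Wilson intervals over transcripts. The share falls from 45.5% and 64.7% at a score of 0.1 to 1.75% and 1.98% at 1 or more. The intervals cover counting within a library and do not compare the conditions.

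Where a counterpart existed it was usually also promoter-TSS, in 84.4% of matched control members and 91.3% of matched IL-4 members. For control members the other counterparts were mostly annotated as intron (6.86%), 5′ UTR (3.32%) or exon (3.30%). A gene's member value can therefore differ between libraries where the class of its transcript differs.

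The first comparison by gene asked which member genes differed after IL-4. A gene's value was its highest member score, and the median ratio (IL-4 to control, log2) of all 13175 gene and class units that had values in both libraries, −0.37, was subtracted from each ratio. This subtraction is called centring. Members named 5507 genes, 4030 in control, 4504 after IL-4 and 3027 in both. At least 2-fold higher were 348 of the 3027 genes (11.5%), where 9.69% of all units were, and 161 were at least 2-fold lower (5.32%), where 10.2% of all units were. Without centring 291 genes were higher (9.61%) and 572 lower (18.9%), where 7.88% and 27.8% of all units were. The median promoter-TSS ratio before centring was 0, as for 5′ UTR units, and that of intron units was −0.51. Only 122 of the higher and 46 of the lower genes stayed past 2-fold over the whole range that rounding of the scores allows.

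For several of the largest changes by gene name, the annotation class of the transcript at the site differed between libraries. Snord17 went from a member score of 15.0 to 0.3, but its control transcript overlapped an IL-4 transcript that scored 16.6 and was annotated to a termination site. Snora75 went from 7.8 to 0.3, with an overlapping IL-4 transcript at 5.2. Chmp2a, a subunit of the ESCRT-III membrane remodelling complex, went from 1.7 to 0.2 with an overlapping IL-4 transcript at 1.5. Among increases, Maf, a macrophage transcription factor, went from 0.4 to 2.3, but its IL-4 transcript overlapped a control transcript scored 3.6 in an exon. Sirpa, the inhibitory receptor for CD47, went from 0.2 to 1.2 while its IL-4 transcript overlapped a control intron transcript scored 3.4. Dhps, an enzyme of hypusine synthesis, had the largest increase, from 0.1 to 0.9, and its IL-4 transcript overlapped a control exon transcript at 0.7.

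Genes named in a single library showed the same limit. Prdx1, a peroxiredoxin, had a member at 1.2 in control and no transcript of its name after IL-4, yet an IL-4 intron transcript at 1.2 overlapped it. Atp6v1b2, a subunit of the lysosomal proton pump, stood at 0.7 in control over an IL-4 promoter transcript at 1.1 that carried another name. Gria3 at 0.7 in control, and 4930555B11Rik at 0.7, Clcn3 at 0.6, Bfar at 0.5 and Bola1 at 0.5 after IL-4, had no overlap in the other library.

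For this reason each member was also paired by position, as the mutual best same-strand overlap with a transcript of any class, a comparison added after the data were seen. This gave 3956 pairs with a member on at least 1 side, among 26398 pairs over all classes, whose median log2 ratio of −0.32 was subtracted for centring. Of member pairs 464 were at least 2-fold higher after IL-4 (11.7%), where 10.3% of all pairs were. At least 2-fold lower were 216 (5.46%), where 11.5% of all pairs were. Without centring 382 were higher and 723 lower, where 2269 and 7345 of all 26398 pairs were. Over the whole rounding range 135 and 37 member pairs remained past 2-fold. The member transcript was longer after IL-4 in 69.6% of pairs, and 71.2% of all pairs were longer.

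The pairs were also counted by promoter kind, with no test between the kinds. Of 453 CpG-poor pairs 14.3% were higher and 7.51% lower, and of 2819 CpG-rich pairs 310 (11.0%) and 141. Without centring the CpG-poor pairs were 56 higher and 114 lower, and the CpG-rich pairs 255 and 481. Over the whole rounding range 16 CpG-poor pairs stayed higher and 7 lower, and 89 and 23 CpG-rich pairs, so that most calls of either kind lay within rounding of 2-fold. Pairs running with the gene were higher in 11.6% and lower in 6.81%, and opposite-strand pairs in 11.8% and 4.49%. Of 56 snoRNA pairs 12 were higher and 1 was lower, and without centring 6 and 3.

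**Figure D4:**
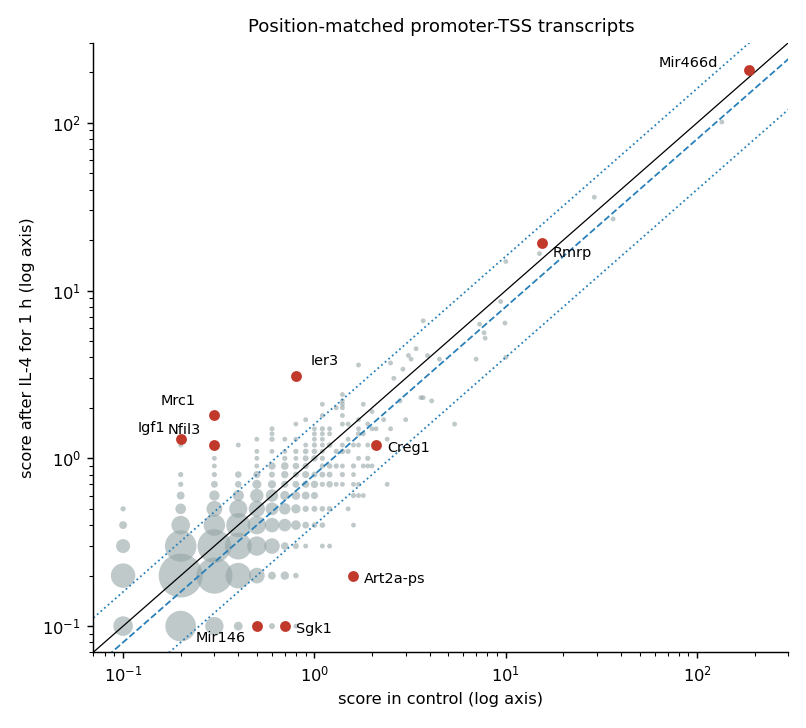
Score in control (x axis, log) against score after IL-4 (y axis, log) for the 3956 position-matched pairs. Grey circles are pairs with the same printed scores, with area growing with their number, and the named pairs are red. The solid line marks equal scores, the dashed line the centre of all pairs and the dotted lines 2-fold from it. Ier3, Mrc1, Igf1 and Nfil3 lie above the upper dotted line, and Sgk1, Mir146 and Art2a-ps below the lower one.

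Among the strongest position-matched increases were genes with CpG-poor promoters that ran with the gene. Ier3, an immediate early gene, had 1 transcript over nearly its whole length (gene at chr17:35821684-35822923). The transcript took its promoter-TSS class from a start of Flot1 on the same strand, with its control 5′ end at −1520 bp from that start. It scored 0.8 in control over 1314 bp and 3.1 after IL-4 over 1580 bp, a centred log2 difference of 2.28 with a rounding range of 2.17 to 2.39. Its window, shown above, holds the CCAAT letters at 2 places and the GC box letters at 1. Mrc1, the mannose receptor, scored 0.3 in control over 159 bp at its start and 1.8 after IL-4 over 1231 bp (centred 2.91, 2.64 to 3.21). The longer IL-4 transcript was annotated as intron, so Mrc1 had a member only in control.

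Fcgr2b, the inhibitory Fc gamma receptor, scored 0.2 in control over 203 bp and 1.2 after IL-4 over 598 bp (centred 2.91, 2.52 to 3.38). Igf1, insulin-like growth factor 1, scored 0.2 in control and 1.3 after IL-4, when its transcript was 1687 bp long (centred 3.02, 2.64 to 3.49). That transcript lay inside the gene and began at −1221 bp from an internal RefSeq start. All 4 were higher with and without centring.

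CpG-rich promoters gave increases on both strands. On the gene's strand Sys1 went from 0.1 to 0.5 and Rnf19b from 0.3 to 0.9, and the following pairs lay on the opposite strand. Nfil3, a bZIP transcription factor, had an upstream antisense transcript at 0.3 over 162 bp in control and 1.2 over 1051 bp after IL-4 (centred 2.32, 2.04 to 2.64). Socs1, the feedback inhibitor of JAK kinases, had one at 0.2 over 255 bp and 0.6 over 698 bp (centred 1.91). Hnrpll, a splicing regulator, went from 0.1 to 0.5 on the opposite strand. Map2k2, the kinase MEK2, went from 0.2 to 0.7 there.

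Decreases were at lower scores and mostly ended at 0.1. Sgk1, a serum- and glucocorticoid-regulated kinase, had an antisense transcript of 653 bp at 0.7 in control and one of 650 bp at 0.1 after IL-4 (centred −2.49, −3.58 to −1.79). Art2a-ps, in the Art2 ADP-ribosyltransferase locus, went from 1.6 to 0.2 on the opposite strand. Dgkz, a diacylglycerol kinase, went from 0.8 to 0.1 in 1 pair and from 0.7 to 0.2 in another, and Tal1, a haematopoietic bHLH factor, from 0.6 to 0.1. These 3 pairs ran with the gene and lay inside it, near internal starts. Htra2, a mitochondrial protease, and Pold1, the catalytic subunit of DNA polymerase delta, also went from 0.6 to 0.1. Bbs10, a chaperonin-like protein of the primary cilium, went from 1.6 to 0.4. Cyp27a1, the sterol 27-hydroxylase, went from 0.6 to 0.2 (centred −1.26, −1.79 to −0.82), and Vegfa, the vascular growth factor, from 0.4 to 0.1 (centred −1.68, −2.85 to −0.90). The Vegfa pair also lay inside its gene.

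**Figure D5:**
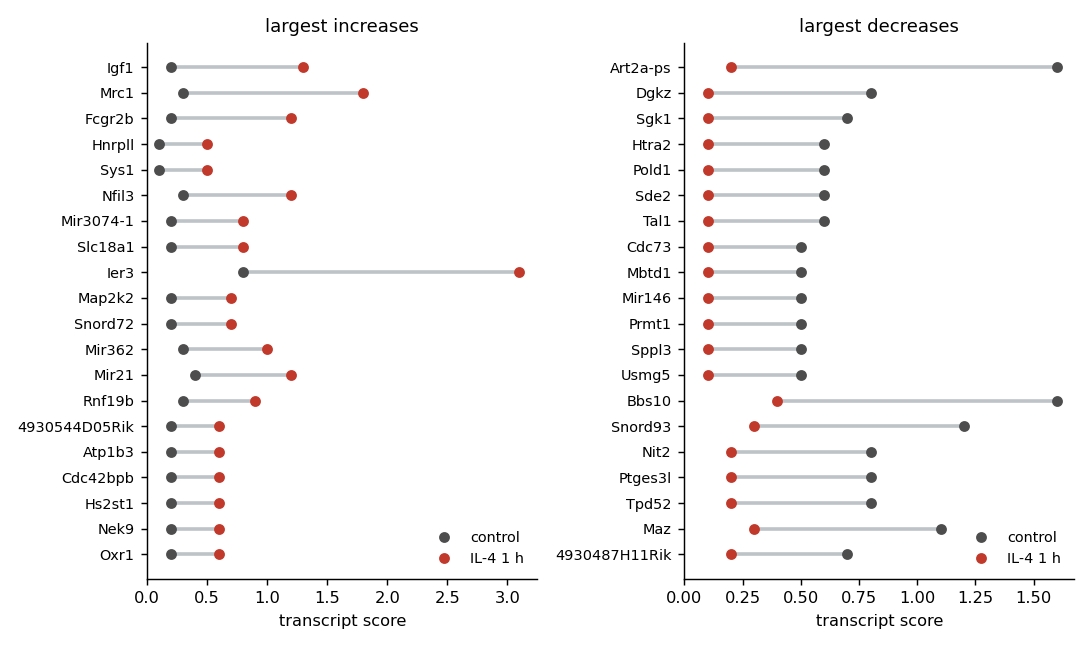
Scores in control (grey) and after IL-4 (red) for the 20 largest increases (left) and 20 largest decreases (right) among position-matched pairs with a score of at least 0.5 in 1 library, joined by a line. The x axes differ between the panels. Increases reach 3.1 at Ier3 and 1.8 at Mrc1, while 12 of the decreases end at 0.1.

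MicroRNA genes are transcribed as long primary transcripts that are cut to a hairpin and then to the mature strand. Promoter-TSS transcripts carried the name of 71 microRNA genes, and 48 pairs could be matched, of which 6 were higher and 4 lower (8.33%), beside the 11.7% and 5.46% of all member pairs. The mature strands at 4 of these loci are shown because the transcripts beside them differed at least 2-fold. Capitals mark the seed, bases 2 to 8.
mmu-miR-21a-5p: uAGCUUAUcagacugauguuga
mmu-miR-146a-5p: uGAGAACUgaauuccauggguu
mmu-miR-362-5p: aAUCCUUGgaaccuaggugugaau
mmu-miR-23a-3p: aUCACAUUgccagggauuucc

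No seed is shared among these 4. Of the 2 pairs named Mir21, 1 lay upstream of the hairpin of miR-21a on chr11 (mature strand at chr11:86584120-86584141, minus) and scored 0.4 in control and 1.2 after IL-4. The control transcript of 218 bp ended 377 bp before the mature miR-21a-5p, and the IL-4 transcript of 660 bp ran past it. The other, farther upstream, scored 0.5 and 1.3. These segments also lie within the 3′ end of the Vmp1 gene, on its strand.

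Transcripts beside Mir362 on chrX scored 0.3 and 1.0. Beside the miR-23b, miR-27b and miR-24-1 hairpins on chr13 the pair named Mir23b scored 0.1 and 0.3, and downstream of them the pair named Mir3074-1 scored 0.2 and 0.8. The pair beside miR-23a on chr8 scored 0.8 and 0.3, in the opposite direction to the pair beside miR-23b. Mir146, the gene of miR-146a, had a transcript at 0.5 in control and 0.1 after IL-4, ending upstream of the mature strand in both libraries.

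The macrophage identity of the libraries was read from marker lists. Any transcript was named for 10 of 12 macrophage markers, 4 of 8 neutrophil, 1 of 5 B cell, 2 of 6 T cell and 2 of 4 erythroid markers, and for 0 of 5 mast cell and basophil and 0 of 6 fibroblast markers. Promoter-TSS transcripts named 3 macrophage markers, Mrc1, Mertk and Ctsb, and none of the others. Mertk, a receptor for apoptotic cells, scored 0.9 in control and 0.6 after IL-4.

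Genes of the IL-4 response and alternative polarization had members for 17 of 50 listed genes, 7 in control and 16 after IL-4. In the IL-4 library only were members of 10 genes, at scores of 0.1 to 0.3. For 6 of these no transcript of any class was named in control. They were Cish, an inhibitor of cytokine signalling, at 0.2, Socs2 at 0.3, Arg1, the arginase, at 0.2, Egr2, a zinc finger factor, at 0.1, the receptor gene Flt1 at 0.1 and the kinase gene Matk at 0.2. The members named for Cish, Arg1 and Egr2 ran opposite to their gene, that of Arg1 beginning at −721 bp from its start, and those of Flt1 and Matk ran with it. The Socs2 member ran on the strand of Socs2 but was annotated from a start of 5730420D15Rik. Tfrc, Stat6, Bcl6 and Plk2, with members at 0.1 or 0.2 opposite to the gene, had transcripts of other classes in control. Over all member genes, 1477 of 5507 had members after IL-4 only. Of those 1477, 479 had no transcript of any class named in control. Of the list's 7 pairs 2 were higher, Mrc1 and Socs1, and 0 lower. For this and the following gene lists, the background was 11.7% higher and 5.46% lower over all member pairs. Il4ra, the IL-4 receptor alpha chain, scored 0.2 and 0.3 on the opposite strand, Klf4 0.3 and 0.4, Batf3 0.2 and 0.3, and Pparg, the fatty acid receptor, 0.3 and 0.2. These 4 did not reach 2-fold.

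Early response transcription factors had members for 21 of 35 genes. Beside the 11.7% of all member pairs, 3 of 13 pairs were higher. Besides Ier3 these were 2 pairs of the AP-1 factor Fosl2, at 0.2 and 0.5 and at 0.2 and 0.4. Klf6, a zinc finger factor, scored 1.4 and 1.8 on the opposite strand, and Jun 0.6 and 0.4, both within 2-fold. In the lysosome and phagocyte list 12 of 38 genes had members. Beside the 5.46% and 11.7% of all member pairs, 2 of 10 pairs were lower and 0 higher. Psap, the precursor of the saposins, scored 1.6 and 0.6 at an internal start of the gene, and Lgmn, the protease legumain, 0.3 and 0.1 on the opposite strand. Grn, the progranulin gene, scored 0.5 and 0.3.

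Myeloid surface receptors had members for 9 of 53 genes, and all 6 with a window were CpG-poor. Beside the 11.7% of all member pairs, 4 of their 6 pairs were higher. These were Fcgr2b, Mrc1, the adaptor gene Tyrobp and the inhibitory receptor gene Cd300a. The last 2 went from 0.1 to 0.2, where rounding allows a centred log2 difference of 0.32 to 2.64. Over all member genes with a window 16.8% were CpG-poor.

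Interferon-stimulated genes had members for 8 of 36 genes. Among their pairs Slfn2, at 0.1 and 0.2, was 2-fold higher. Pattern recognition genes had members for 8 of 33 genes, and 1 of 5 pairs was higher, Casp4, an inflammatory caspase, at 0.1 and 0.2. Cytokine genes had members for 5 of 33 and lipid handling genes for 5 of 28, and 0 of 2 pairs in each list passed 2-fold in either direction. Tnf and Osm each scored 0.2 in both libraries. Without centring the higher pairs of these gene lists remained 2-fold higher, and 8 further pairs were 2-fold lower. Those were Tlr6 at 0.6 and 0.3, Gsdmd, Bst2 and Cebpa at 0.4 and 0.2, and Mgl2, Ctsb, Runx1 and Fabp5 at 0.2 and 0.1.

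The study's own lists of genes whose mRNA was induced or repressed by IL-4 were drawn from RNA-seq of other samples, and only their symbols were used. Of 989 induced genes (clusters A to D) 327 had members, 200 in control and 276 after IL-4. Their 197 pairs were higher in 45 cases (22.8%) and lower in 8 (4.06%), with a median centred log2 difference of 0.32, the same as over all member pairs. Without centring 41 were higher and 30 lower, where 382 and 723 of all 3956 member pairs were. Of the 117 pairs of clusters A to C 34 were higher (29.1%) and 1 lower. Near CpG-poor windows 8 of 20 pairs of the induced genes were higher, where 14.3% of all CpG-poor member pairs were. Near CpG-rich windows 29 of 139 were (20.9%), where 11.0% of all CpG-rich member pairs were. On the strand of the gene with the nearest start 29 of 112 were higher (25.9%), and on the opposite strand 16 of 85 (18.8%). By the strand of the annotated gene, 11.6% and 11.8% of all member pairs were higher.

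Further induced genes with higher pairs were Rara, a retinoic acid receptor, at 0.1 and 0.3, Hlx, a homeobox factor, at 0.2 and 0.4 on the opposite strand, Irs2, the insulin and IL-4 receptor substrate, at 0.2 and 0.5 on the opposite strand, and Atp6v0a1, a proton pump subunit, at 0.5 and 1.0. Hspa1b, a heat shock protein, went from 0.7 to 0.2. A second Irs2 pair on the gene's strand scored 0.6 and 0.7.

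Of 625 repressed genes (cluster E) 206 had members, 160 in control and 142 after IL-4. Their 126 pairs were higher in 12 cases (9.52%) and lower in 13 (10.3%), with a median centred log2 difference of −0.09. Without centring 11 were higher and 37 lower, where 382 and 723 of all 3956 member pairs were. Near CpG-poor windows 7 of 32 pairs were lower and 5 higher, and near CpG-rich windows 4 of 73 were lower and 6 higher. Sgk1, Vegfa and Cyp27a1 were among the lower pairs, as were Il15, a cytokine, at 0.3 and 0.1 and Tgfbr1, a TGF-beta receptor, at 0.3 and 0.1 on the opposite strand. These lists are described beside the background of all member pairs, and no difference between them was tested.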

How the data were processed

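Per the labels and the study's methods, the authors aligned reads to mm10, called transcripts per library with HOMER in its GRO-seq setting, removed ENCODE artifact regions and annotated the segments. The submitters' processing notes name BWA 0.7.10, SAMtools 0.1.19 and HOMER 4.2. The authors deposited 1 score per transcript, rounded to 1 decimal, and whether it was scaled to depth is not given in the sources used here. Depth is therefore unknown, and the number of transcripts limits the precision of shares.

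All transcripts were kept. Gene starts and strands came from RefSeq and GENCODE M21 (GRCm38, the build called mm10), within 1500 bp of a member, and promoter windows from RefSeq, within 1000 bp. Matching, ratios and calls were tested on simulated data (Python 3.11.15, pandas 2.3.3, NumPy 2.4.6, SciPy 1.17.1). Named genes were the 8 highest per library, the 10 largest changes each way among genes at least at the median gene value in 1 library, the 5 highest named in 1 library only, and genes of the lists. The 20 largest pair changes each way with a score of at least 0.5 were added after seeing the data, as were the split of windows by CpG content and the strand by nearest start. The members and lists were chosen with earlier results of these data known. Alternatives were score limits, other gene values, centrings and overlaps. A result for 1 gene of the lists is not reported here.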

Additional observations from a re-analysis of the deposited data

How the results depend on the processing

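With 1 library per condition no value has a replicate, and no call was tested. No paired analysis was possible because each condition had 1 library, and no library could be left out. With a score of at least 0.3, members numbered 2645 in control and 2277 after IL-4 (11.2% and 12.3% of such transcripts), their median length was 310 bp after IL-4, their median score 0.4 in each library, 8.47% and 13.4% had no counterpart, and 41.4% ran with their gene in control. In the 21561 highest-scoring transcripts of each library members were 2434 (11.3%) and 2567 (11.9%), so more members after IL-4 held in this setting and not with the score limit. Within 250 bp of a start 48.4% and 42.1% ran with their gene, and by the nearest start, a choice made after seeing the data, 58.1% and 53.5%. With an overlap of at least 50%, 25.2% and 49.4% had no counterpart. Against 348 genes higher and 161 lower of 3027, sums of scores gave 263 lower and score times length 565 higher and 448 lower. The whole rounding range gave 122 and 46. Own-strand members gave 154 higher and 60 lower of a smaller set of 858 genes. No centring and centring on promoter-TSS genes each gave 572 lower, and pairs without centring, added after seeing the data, 723. The other 12 values stayed within 1.5 times or within the main interval.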

Other observations

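The promoter windows of members were searched for short motifs on both strands, as letters and not as sites. The GC box letters GGGCGG were in 78.9% of CpG-rich and 44.4% of CpG-poor member windows, against 75.8% and 15.5% of all reference windows of each kind. The TATA box letters TATAAA were in 8.14% of the 811 CpG-poor member windows and in 18.2% of the 21856 CpG-poor reference windows, and the CCAAT letters in 43.3% and 38.5%. These 2 sets differed in composition, with median GC contents of 54.7% and 48.3% and medians of 10 and 4 CG dinucleotides. The part of composition in the motif shares was not tested. The letters TTCNNNNGAA, of the kind bound by STAT6, were in 4.27% of all member windows and 6.95% of all reference windows, and among CpG-poor windows in 5.92% and 8.34%. In windows of pairs at least 2-fold higher after IL-4 they were in 18 of 370, and in windows of pairs at least 2-fold lower in 7 of 175. The window of Socs1 holds GAAA, 2 free bases and GAAA again at 2 overlapping places, letters of the interferon response element type that were found in 4.32% of CpG-poor and 2.14% of CpG-rich member windows.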
